A study of Mus musculus with 246 samples.

Results

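The potassium channel genes of the mouse were followed across 6 brain regions, 3 rearing and drug conditions, and animals with or without a recent social encounter. Members were the genes whose symbol is Kcn followed by a letter code and a number and whose counts summed to at least 100 over all libraries. This gave 85 members out of 92 genes with such a symbol and 56691 genes in the table, and all 85 were protein coding. The 7 genes that fell short of the count were Kcna7, Kcna10, Kcne1, Kcnj1, Kcnk16, Kcnk18 and Kcnmb3. The members comprised 14 inward rectifiers (Kir), 12 K2P leak channels, 10 silent Kv subunits, 8 channels of the Kv10 to Kv12 families, 6 of Kv1, 5 of Kv7, 4 of Kv3, 3 of Kv4 and 2 of Kv2. The remainder were 4 KChIP proteins, 4 large-conductance Slo channels, 4 SK and IK channels, 3 Kv1 beta, 3 BK beta and 3 KCNE subunits.

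All animals were adult male mice of the outbred CD1 strain. Ctrl_Veh animals were reared under standard conditions by dams given an empty gel. ELA_Veh animals had early life adversity, imposed as limited bedding and nesting, with dams given the empty gel. ELA_SAFit2 animals had the same adversity, with dams given a gel holding SAFit2, a selective inhibitor of FKBP51, a co-chaperone that restrains the glucocorticoid receptor. The gel was placed under the skin of the dam and pups were exposed through milk, so no pup was injected. In the NoInteraction set, 21 mice (7 per condition) were collected without an encounter. In the SocialInteraction set, 20 mice (6 Ctrl_Veh, 7 ELA_Veh and 7 ELA_SAFit2) had spent 10 minutes with an unfamiliar mouse before collection. Each of the 41 mice gave 1 library from each of 6 regions. These were medial prefrontal (mPFC) and anterior cingulate (ACC) cortex, the shell of the nucleus accumbens (Nacc), the basolateral amygdala (BLA), the dorsomedial thalamus (DMT) and the ventral hippocampus (vHipp), each from pooled bilateral punches. No group received SAFit2 without adversity.

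Potassium channels set the resting potential of a neuron, shape its action potential and limit its firing rate. Kv channels open on depolarization, Kir channels pass current best near rest and carry G-protein signals or glial potassium uptake, and K2P channels give the resting leak. Silent Kv subunits form no channel alone but change Kv2 channels they join, while KChIP, beta and KCNE proteins tune the gating and traffic of the pore subunits.

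Promoter sequences are given for 4 members whose levels carry the results that follow. Kcne2 and Kcnj13 were abundant in the same BLA libraries, Kcnj4 was close to absent in the DMT and abundant elsewhere, and Kcnk1 had the largest called change after social interaction. Each run holds 300 bases read 5′ to 3′ on the gene's strand, from 250 bases before to 50 bases after the RefSeq start (GRCm38.p6), at chr16:92292139-92292438 (plus strand) for Kcne2, chr1:87394680-87394979 (minus) for Kcnj13, chr15:79505192-79505491 (minus) for Kcnj4 and chr8:125994852-125995151 (plus) for Kcnk1. Capitals mark TGACG, the core letters of the cyclic AMP response element, and GGGCGG, the GC box bound by Sp factors, on either strand.
Kcne2: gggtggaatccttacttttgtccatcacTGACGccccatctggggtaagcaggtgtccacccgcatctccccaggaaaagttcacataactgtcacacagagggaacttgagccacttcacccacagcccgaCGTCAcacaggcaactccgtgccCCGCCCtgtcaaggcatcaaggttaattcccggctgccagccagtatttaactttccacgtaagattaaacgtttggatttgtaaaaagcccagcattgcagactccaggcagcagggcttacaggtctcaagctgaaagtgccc
Kcnj13: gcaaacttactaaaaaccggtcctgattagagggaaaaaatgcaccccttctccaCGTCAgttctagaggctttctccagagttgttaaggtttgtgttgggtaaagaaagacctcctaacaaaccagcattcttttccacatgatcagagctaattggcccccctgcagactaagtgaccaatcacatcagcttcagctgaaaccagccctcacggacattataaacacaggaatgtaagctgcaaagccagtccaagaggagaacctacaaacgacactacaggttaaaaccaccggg
Kcnj4: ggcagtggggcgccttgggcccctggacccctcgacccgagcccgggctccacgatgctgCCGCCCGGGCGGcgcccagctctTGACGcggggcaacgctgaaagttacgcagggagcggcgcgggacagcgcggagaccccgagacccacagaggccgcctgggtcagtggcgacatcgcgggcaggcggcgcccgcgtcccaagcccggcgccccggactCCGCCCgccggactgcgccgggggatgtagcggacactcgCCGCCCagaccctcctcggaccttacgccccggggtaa
Kcnk1: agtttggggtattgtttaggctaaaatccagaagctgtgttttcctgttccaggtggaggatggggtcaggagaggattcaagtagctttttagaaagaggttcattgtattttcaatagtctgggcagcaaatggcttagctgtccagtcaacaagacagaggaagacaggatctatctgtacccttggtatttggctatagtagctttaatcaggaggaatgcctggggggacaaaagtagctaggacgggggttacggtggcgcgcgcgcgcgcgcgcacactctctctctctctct
The window of Kcne2 held 2 TGACG matches and 1 GGGCGG match, that of Kcnj13 held 1 TGACG match, and that of Kcnj4 held 1 TGACG and 4 GGGCGG matches, a pair of which abut. The window of Kcnk1 held neither. For Kcne2, 2 promoters were listed and 1 of them is shown. A promoter was listed for 61 of the 85 members. GGGCGG stood in 68.9% of these windows against 38.2% of 27025 gene promoters of the same length, TGACG in 26.2% against 23%, and TATAAA in 8.2% against 15.7%. Such matches describe the letters and are not measured binding sites.

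Libraries held 20804247 to 43351424 estimated counts, with a median of 28844788. Each region's marker genes were highest in the region named on the label, for example the thalamic list in the DMT (median summed level 3796 CPM, counts scaled to a common library size and stated per 1e6) and the striatal list in the Nacc (4914 CPM). The BLA libraries also carried striatal genes (median 2019 CPM), and choroid plexus genes that are described below. A check on 60 genes whose level differs between individuals across regions matched 12 of the 41 Nacc libraries, 6 of them NoInteraction, to a mouse other than the labelled one. The ACC library of mouse 89 (Ctrl_Veh, SocialInteraction) matched its own mouse (r = 0.565) and another mouse (r = 0.571) about equally. That library was the highest or lowest of the 41 ACC libraries for 33 of 82 members and for 53.4% of all genes, with 23 members for the next ACC library and a median of 2. The Nacc library of mouse 69 (ELA_Veh, NoInteraction), which is among the 12, was the highest or lowest for 48 members and 37% of all genes, with 15 members for the next. All libraries were kept under their labels, and results that turn on these Nacc and ACC libraries are given with and without them. In tissue punches, fewer cells of a type and less RNA per cell cannot be told apart.

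The first question was how far the channel genes differ between regions. A member was called for a region where edgeR's quasi-likelihood test, with the mouse as a block and Benjamini-Hochberg adjustment over 17381 genes, gave an adjusted p under 0.05 and the log2 difference from the mean of the other five regions was at least 1. On this rule 50 of 85 members (58.8%) were called in at least 1 region, against 27.7% of all genes tested. Among these 50, Kcne3, Kcnj15, Kcnk7, Kcnk15, Kcnn4 and Kcnv2 had a median under 1 CPM in every region. Calls were spread unevenly over the families, with 9 of 10 silent Kv subunits, 7 of 8 Kv10 to Kv12 channels, 11 of 14 Kir channels and all 3 KCNE and 3 BK beta subunits called. In the other voltage-gated families 1 of 6 Kv1, 0 of 2 Kv2, 2 of 4 Kv3, 0 of 3 Kv4 and 1 of 5 Kv7 channels were called. These families are too small to set against the share of all genes. Regions accounted for a median of 84.5% of the variance in level of the 76 members with a mean of at least 1 CPM, against 67.7% for 13764 genes at that level. The share was 98.05% for Kcnh3, 97.09% for Kcnh1 and 97.04% for Kcnv1.

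**Figure D1:**
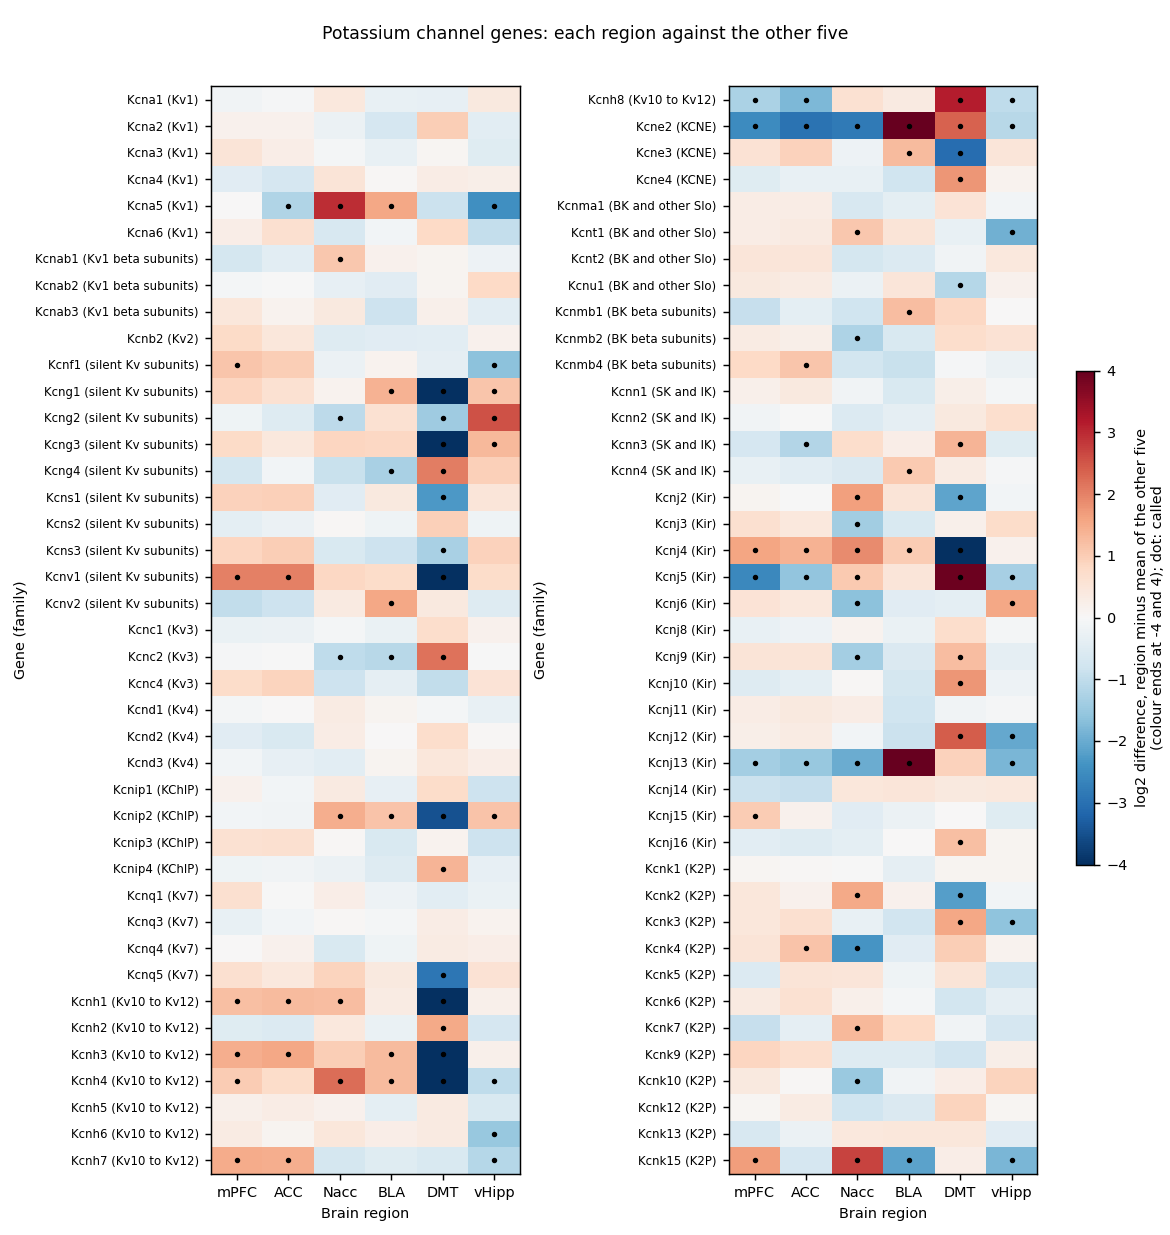
Log2 difference of 82 members (vertical axis, by family) between a region (horizontal axis) and the mean of the other five, in blue for lower and red for higher, with the colour ending at -4 and 4 and a dot for each call. The DMT column holds the deepest reductions, down to -6.33 for Kcnv1, and the BLA column holds the 2 largest increases, 7.02 for Kcne2 and 5.73 for Kcnj13.

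The DMT stood furthest from the other regions, with 14 members called higher (all genes, 8.8%) and 16 called lower (9.6%). The lower group was led by a silent subunit, a Kir channel and a Kv12 channel. Kcnv1, a silent subunit that reduces Kv2 currents, had 0.163, 0.579 and 4.55 CPM (all regions scaled together, as for all region levels) as its lowest, median and highest DMT library, whereas its medians elsewhere ran from 49.01 CPM in the vHipp to 106.4 CPM in the mPFC, a log2 difference of -6.33 ± 0.10 (SE, n = 41 mice). Kcnj4, an inward rectifier of forebrain neurons, had a DMT median of 0.74 CPM (0.078 to 9.88) and medians of 57.1 to 157.1 CPM elsewhere (-6.02 ± 0.12). Kcnh3, a Kv12 channel that damps excitability near threshold, had a DMT median of 2.53 CPM (1.24 to 7.33) and 171.2 CPM in the ACC (-5.45 ± 0.07). For these 3 genes every DMT library lay below every library of the other regions. The same separation held for Kcnh1, Kcnh4, Kcng1, Kcnip2, Kcnj2, Kcnk2 and Kcnq5, which makes 10 members, 11.8% of 85, where 2.75% of all genes separated in this way. Kcnq5, which contributes to the M-current that curbs repetitive firing, had a DMT median of 17.5 CPM (10.1 to 28.7) against 159.7 CPM in the Nacc (-2.90 as log2 difference from the other regions). Kcnk2, a leak channel opened by stretch and lipids, had 9.40 CPM (6.66 to 16.4) in the DMT against 85.7 CPM in the Nacc. Kcnip2, a KChIP that assembles with Kv4 channels, had 11.4 CPM (7.69 to 41.2) against 225.6 CPM in the Nacc.

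The members called higher in the DMT included the glial Kir genes. Kcnj10, the astrocyte and oligodendrocyte channel that clears extracellular potassium, had 706.4, 850.4 and 989.8 CPM as its lowest, median and highest DMT library, whereas the highest library of any other region was a Nacc library at 653.5 CPM (1.76 ± 0.03). Its partner Kcnj16, which forms mixed channels with Kcnj10, was 1.20 higher on the log2 scale, with a DMT median of 57.6 CPM. The oligodendrocyte marker list had its highest median in the DMT (5934 CPM, next the Nacc at 3770 CPM), whereas the astrocyte list had its lowest there (3609 CPM, against 5598 CPM in the vHipp). Their part in the Kcnj10 difference was not tested. Among neuronal channels, Kcnc2, a Kv3 channel that permits fast firing, had a DMT median of 444.6 CPM (223.4 to 518.2) against 63.1 CPM in the BLA and 124.8 CPM in the ACC (2.18 ± 0.03). Kcnj5, a G-protein-gated Kir subunit, had a DMT median of 14.8 CPM (7.77 to 27.3), next in order the Nacc at 2.77 CPM, and 0.303 CPM in the mPFC (3.93 ± 0.08). Kcnj12 had a median of 52.7 CPM (37.6 to 62.5) and Kcnip4 of 150.3 CPM (110.7 to 175.6). Kcnh8, a Kv12 channel of low level, had 4.78 CPM (2.12 to 12.1) and a log2 difference of 3.13 ± 0.08. All DMT libraries lay above all others for Kcnc2, Kcnh8, Kcnip4, Kcnj5, Kcnj10 and Kcnj12, 6 of 85 members (7.06%) against 2.74% of all genes. Kcng4, Kcne4, Kcnk3, Kcnh2, Kcnn3 and Kcnj9 were also called higher, with log2 differences from 1.24 for Kcnj9 to 2.06 for Kcng4. Kcne3 was called lower in the DMT on very low levels, with no region above a median of 0.202 CPM.

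**Figure D2:**
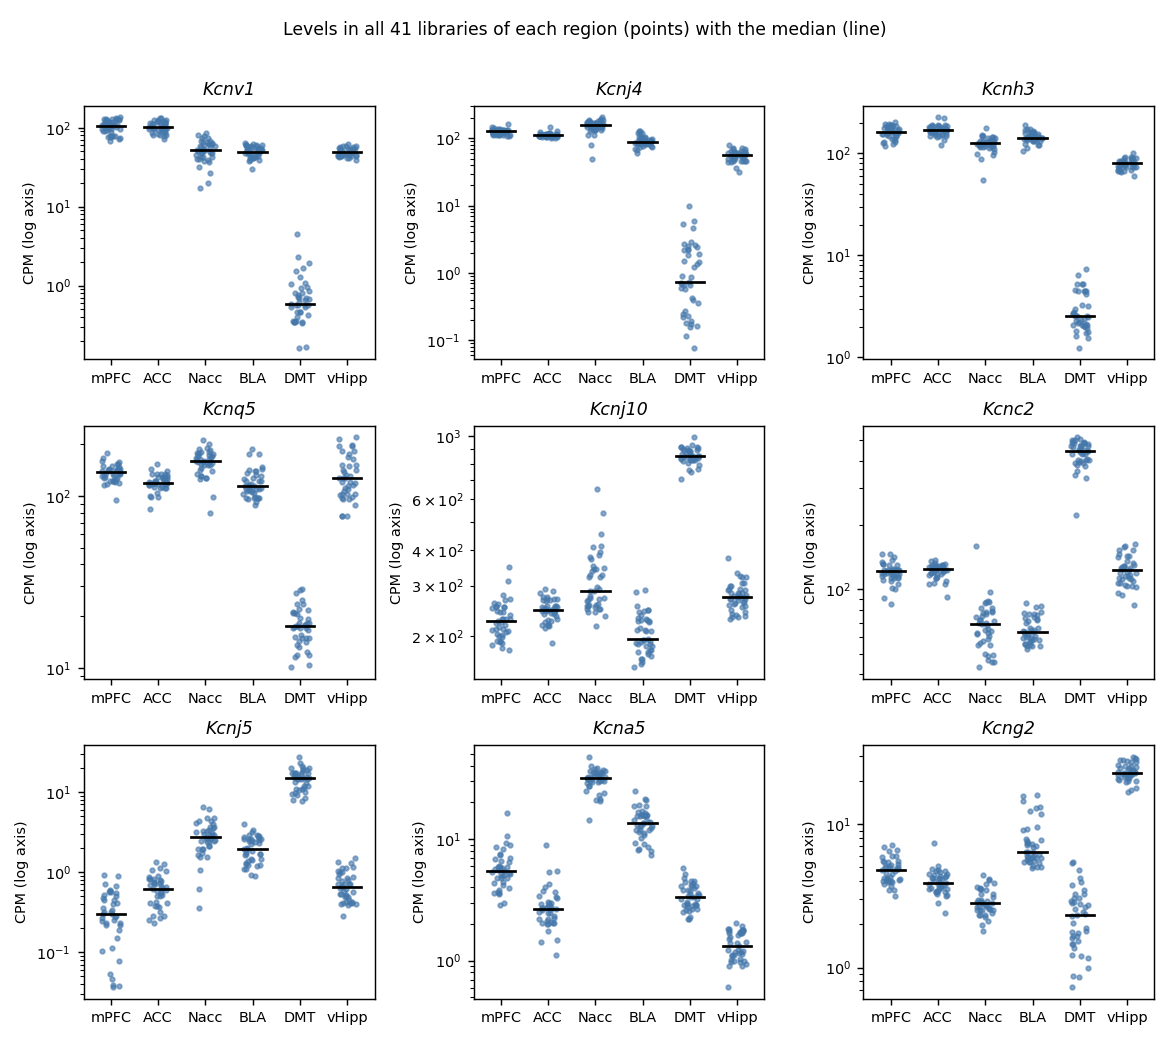
CPM (all regions scaled together) of selected members in each of the 41 libraries of each region, as points, with a line at the median. The DMT points of Kcnv1, with a median of 0.579 CPM, and Kcnj4, with 0.74 CPM, lie below all other points, and those of Kcnj10, with 850.4 CPM, lie above them.

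The 2 cortical regions shared their profile. Over 77 members the mPFC and ACC medians correlated at r = 0.996 (Spearman's rho = 0.995) with a median absolute log2 difference of 0.115, which describes medians from the same mice. The lowest such value was that of BLA and DMT (r = 0.666, rho = 0.711). In the mPFC 9 members were called higher (all genes, 3.24%) and 4 lower (4.13%), and in the ACC 7 higher (3.48%) and 6 lower (4.52%). Kcnv1 led both regions, with 68.3, 106.4 and 135.7 CPM as the lowest, median and highest mPFC library (2.01 ± 0.05) and 72.6, 102.0 and 133.5 CPM in the ACC (2.0 ± 0.05). Kcnh3 was 1.45 ± 0.04 higher in the mPFC and 1.54 ± 0.04 higher in the ACC. Kcnh7, an ERG channel active near rest, was 1.48 and 1.47 higher, with a median of 185.3 CPM in the mPFC and 46.7 CPM in the Nacc. Kcnj4 was 1.58 and 1.38 higher, while Kcnj5 was 2.57 and 1.57 lower on that scale (differences of -2.57 ± 0.14 and -1.57). The low-level leak channel Kcnk15 was called higher in the mPFC (1.68 ± 0.22), with a median of 0.0961 CPM. The choroid plexus subunit Kcne2 was called lower in both (-2.52 ± 0.49 and -2.94) and Kcnj13 in the mPFC (-1.37), relative to a mean that includes the BLA, and Kcnh8 was lower in the ACC (-1.80). The ACC calls also included Kcnh1 (1.25), the mechanosensitive leak channel Kcnk4 (1.14) and the BK beta subunit Kcnmb4 (1.11). No gene of the 17381 tested, and so no member, separated either cortical region from all other libraries.

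In the Nacc 12 members were called higher (all genes, 4.52%) and 10 lower (4.86%). Kcna5, a Kv1 delayed rectifier, had 14.4, 31.6 and 47.2 CPM as its lowest, median and highest Nacc library, with the BLA next at a median of 13.5 CPM and the vHipp lowest at 1.33 CPM (2.96 ± 0.05). Kcna5 was the only Kv1 channel called in any region. Kcnh4, a Kv12 channel, had a median of 30.8 CPM (2.25 ± 0.06). The inward rectifiers Kcnj4 (1.89) and Kcnj2 (1.63), which hold projection neurons of the striatum near a negative rest, were both called higher, with medians of 157.1 and 48.6 CPM. Kcnk2 (1.51), Kcnip2 (1.45), Kcnab1 (1.08) and the sodium-activated channel Kcnt1 (1.07) were also higher. In contrast, the G-protein-gated subunits Kcnj3 (-1.38), Kcnj6 (-1.64) and Kcnj9 (-1.36), but not Kcnj5, were called lower. Their Nacc medians were 51.1, 9.47 and 61.6 CPM, against 181.4, 40.0 and 194.3 CPM in the mPFC. Also called lower were the mechanosensitive leak channels Kcnk4 (-2.35 ± 0.08) and Kcnk10 (-1.48), opposite in direction to Kcnk2. Kcnk15 was called higher (2.70 ± 0.21) at a median of 0.41 CPM, and Kcne2 (-2.82) and Kcnj13 (-1.97) were called lower. No member separated the Nacc libraries from all others, as only 0.046% of all genes lay above and 0.0173% below, and without the 12 libraries that matched another mouse, 2 of the 112 region calls made over the 6 regions were lost and 1 was gained.

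In the BLA 12 members were called higher (all genes, 6.62%) and 3 lower (1.78%). The largest differences belonged to channel genes of the choroid plexus, the epithelium that secretes cerebrospinal fluid. Kcne2, an ancillary subunit of that epithelium, had 0, 19.5 and 39.8 CPM as its lowest, median and highest BLA library (7.02 ± 0.22), and no mPFC library exceeded 0.267 CPM. Kcnj13, a Kir channel of the same epithelium, had 0, 29.0 and 63.5 CPM in the BLA (5.73 ± 0.22). These levels ran with those of Ttr, the transthyretin gene that defines choroid plexus, which ranged from 0 to 5071 CPM in the BLA with a median of 2354. Kcne2 reached 1 CPM in 33 of 41 BLA libraries and all 33 had at least 100 CPM of Ttr. All 8 genes of the choroid plexus list were measured, and their summed level was 26.6 to 5872 CPM in the BLA, 13.6 to 1440 CPM in the DMT, 18.0 to 298 CPM in the vHipp and at most 52.6 CPM in the Nacc. In the DMT, Kcne2 was at or above 1 CPM in 15 libraries and 13 of these passed the Ttr level. Kcne2 was called in the DMT as well (2.37 ± 0.28). In the mPFC, ACC and Nacc, no library reached either level. Kcnj13 reached 1 CPM in 35 BLA libraries, 33 of which passed the Ttr level, and in 15 DMT libraries, 14 of which passed it. It also reached 1 CPM in 5 mPFC, 2 ACC and 2 Nacc libraries, none of which passed the Ttr level, with 2.33 CPM in its highest mPFC library. The part of choroid plexus tissue in these differences was not tested beyond these values. Within the BLA the group medians of the choroid list ran from 515 CPM in ELA_SAFit2 SocialInteraction to 3753 CPM in ELA_Veh SocialInteraction, the lowest library of a group lying at 26.6 to 115.3 CPM and the highest at 4406 to 5872 CPM. Apart from these genes, Kcna5 (1.54) and Kcng1 (1.39), a silent subunit with a BLA median of 69.8 CPM, were called higher, and Kcnv2 (1.55) was called at a median of 0.0342 CPM. Lower calls were Kcnk15 (-2.15), Kcng4 (-1.30) and Kcnc2 (-1.11).

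**Figure D3:**
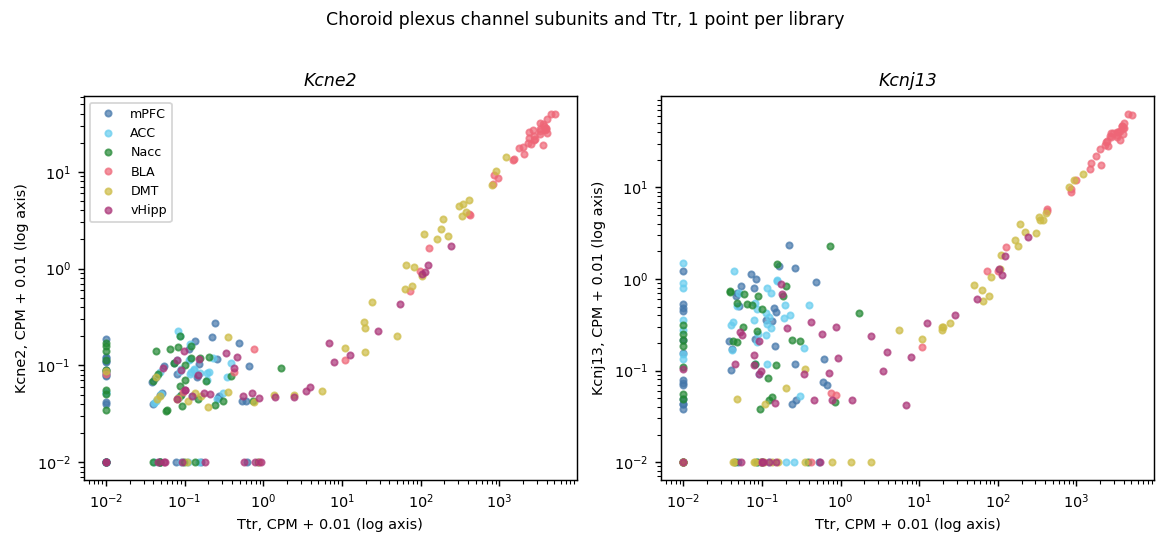
CPM + 0.01 of Kcne2 and of Kcnj13 (vertical axes) against CPM + 0.01 of Ttr (horizontal axes) in each library, coloured by region, with all axes on a log scale. The libraries with 1 CPM or more of Kcne2 are mostly BLA libraries (33 of 41) and DMT libraries (15 of 41), and lie at high Ttr.

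In the vHipp 6 members were called higher (all genes, 5.34%) and 13 lower (5.62%). Kcng2, a silent subunit, had 16.8, 22.7 and 29.4 CPM as its lowest, median and highest vHipp library, with no BLA library above 15.9 CPM (2.55 ± 0.05). Kcnj6 was 1.54 higher with a median of 71.9 CPM, while Kcng3 (1.30), Kcnip2 (1.14) and Kcng1 (1.11) were also called higher. Kcnab2, the main beta subunit of Kv1 channels, was below the fold threshold (0.80 ± 0.02), but its vHipp libraries (520.8 to 867.9 CPM) all lay above those of other regions. Members called lower included Kcnt1, with 31.7, 47.04 and 70.0 CPM as its lowest, median and highest vHipp library and 99.2 CPM as its lowest DMT library (-1.93 ± 0.04), Kcna5 (-2.45 ± 0.09), Kcnj12 (-2.03), the silent subunit Kcnf1 (-1.63), the acid-sensitive leak channel Kcnk3 (-1.60) and Kcnh7 (-1.15). The vHipp libraries lay above all others for 3 members (3.53%; all genes, 1.2%) and below all others for 2, Kcnh6 and Kcnt1 (2.35%; all genes, 0.455%).

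The 35 members called in no region held most of the broadly expressed neuronal channels. Kcnq3, a subunit of the M-current, had medians from 236.8 CPM in the mPFC to 342.3 CPM in the DMT. Kcnma1, the BK pore subunit, ran from 247.0 to 487.0 CPM in its region medians. Kcna2, an axonal Kv1 channel, came close to a call in the DMT at 0.99 ± 0.02 with a median of 621.0 CPM, and Kcna1 ranged from 65.3 to 103.1 CPM. The A-type channels Kcnd2 and Kcnd3 were both highest in the DMT (208.0 and 181.1 CPM), with log2 differences of 0.70 and 0.46. Kcnc1 was also highest there (345.3 CPM, 0.69), whereas the leak channel Kcnk9 was highest in the mPFC (227.8 CPM, 0.87). Kcnn2, an SK channel of the afterhyperpolarization, was highest in the vHipp (59.2 CPM, 0.66) and Kcnj8, the Kir pore of mural cells, had medians of 1.64 to 2.98 CPM. Their differences between regions fell short of the fold required for a call.

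Levels were compared between genes only per kilobase of transcript. On that scale Kcnab2 came first in the mPFC (69.9 CPM per kb), ACC (71.8), BLA (55.3) and vHipp (116.4), Kcnj4 in the Nacc (73.0) and Kcnj10 in the DMT (157.3). Of the 85 members, 66 had a median of at least 1 CPM in all 6 regions and 31 reached a median of 100 CPM in some region. The 8 members under 1 CPM in every region were Kcne3, Kcnj15, Kcnk5, Kcnk7, Kcnk15, Kcnn4, Kcnq1 and Kcnv2. The medians of all members summed to 7273 CPM in the DMT, the highest, and to 5382 CPM in the BLA, the lowest.

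Genes of proteins that assemble with or resemble these channels were drawn from a list of 19, of which 18 were tested. In the DMT 3 were called higher (all genes, 8.8%) and 2 lower (all genes, 9.6%). The pacemaker channel genes Hcn4 (3.48 ± 0.06) and Hcn2 (1.18) were among those called higher. The BK-modulating Lrrc55 was higher (1.39) and the Kv1-associated Lgi1 lower (-1.13). In the vHipp 1 was called higher, Kctd12 (1.33; all genes, 5.34%), and 4 lower (all genes, 5.62%), led by the Kv4 partner Dpp10 (-2.05). The mPFC and Nacc had 1 higher call each, Lrrc38 (1.29; all genes, 3.24%) and Kctd8 (1.52; all genes, 4.52%). The ACC had 1 higher (all genes, 3.48%) and 1 lower (4.52%), and the BLA had 2 lower (1.78%).

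The next question was whether early life adversity or SAFit2 changed the channel genes in the adult brain. Comparisons of ELA_Veh with Ctrl_Veh, of ELA_SAFit2 with ELA_Veh and of ELA_SAFit2 with Ctrl_Veh were made in each region and in the summed regions of a mouse, within each set, averaged over both and as the difference between sets, 84 in all. They share libraries and are not independent. No member passed an adjusted p of 0.05 in any of them by edgeR's quasi-likelihood test with Benjamini-Hochberg adjustment over all genes tested, and the smallest adjusted p was 0.209. At an unadjusted p under 0.05 there were 300 of 6912 member results (4.34%), where all genes gave 4.45%. Called genes of any kind were few in these comparisons. In the mPFC they made up 0.00632% of genes for ELA_Veh against Ctrl_Veh (NoInteraction and both sets averaged) and for ELA_SAFit2 against ELA_Veh in NoInteraction mice, 0.0126% for the latter with both sets averaged, and 0.019% for ELA_SAFit2 against Ctrl_Veh. For the difference between sets of ELA_SAFit2 against ELA_Veh they made up 0.0318% in the ACC and 0.0315% in the Nacc. The highest share over the 84 comparisons was 0.0403%, for that same difference in the summed regions.

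With both sets averaged, the count of members at an unadjusted p under 0.05 for ELA_Veh against Ctrl_Veh ran from 1 of 82 in the Nacc (1.2%; all genes, 2.8%) to 6 of 82 in the ACC (7.3%; all genes, 5.4%). For ELA_SAFit2 against ELA_Veh it was 10 of 82 in both the mPFC (12.2%; all genes, 6.7%) and the ACC (12.2%; all genes, 5.9%), and 3 to 5 elsewhere, where all genes gave 3.6% to 5.4%. For ELA_SAFit2 against Ctrl_Veh it was 8 in the ACC (9.8%; all genes, 7.3%), all lower, 9 in the DMT (11%; all genes, 6.6%), 1 each in the mPFC and vHipp and 0 in the Nacc and BLA, where all genes gave 2.1% to 5.3%. In the Nacc of NoInteraction mice 16 of 82 members (19.5%; all genes, 11.5%) had an unadjusted p under 0.05 for ELA_SAFit2 against ELA_Veh, and 10 of 81 without the libraries that matched another mouse. For ELA_Veh against Ctrl_Veh there, the count was 8 of 82 (9.8%; all genes, 8.2%) and became 1 of 81 without them. The shares of all genes without these libraries are not given here, so neither change can be read as particular to the members.

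The smallest adjusted p belonged to Kcnip1 in the ACC. Kcnip1 encodes a KChIP of interneurons that binds Kv4 channels. In NoInteraction mice its lowest, median and highest levels were 19.0, 23.1 and 25.8 CPM (each region scaled alone) in Ctrl_Veh, 20.7, 22.8 and 28.6 CPM in ELA_Veh and 18.8, 19.6 and 23.7 CPM in ELA_SAFit2. In SocialInteraction mice they were 19.9, 22.7 and 24.5 CPM, 20.2, 24.3 and 34.9 CPM, and 18.4, 20.6 and 22.9 CPM. The ELA_SAFit2 median was thus lowest in both sets, with overlapping ranges. The log2 difference of ELA_SAFit2 from ELA_Veh was -0.28 ± 0.06 (edgeR adjusted p = 0.209), and DESeq2 gave -0.28 with an adjusted p of 0.0467, 1 of only 4 genes (0.0254% of 15722) it called there. Kcng4 in the ACC, a silent subunit, had a difference of -0.44 ± 0.12 (adjusted p = 0.356) and Kcnk6 in the Nacc of 0.21 ± 0.07 (adjusted p = 1). For ELA_Veh against Ctrl_Veh the smallest unadjusted p values were those of Kcne3 in the BLA (0.73 ± 0.25, adjusted p = 0.983), Kcne4 in the Nacc (0.52 ± 0.19, adjusted p = 0.999) and Kcnip3 in the vHipp (-0.13 ± 0.05, adjusted p = 0.708). For ELA_SAFit2 against Ctrl_Veh they were Kcng4 (-0.44 ± 0.13, adjusted p = 0.425), Kcnn2 (-0.11 ± 0.04, adjusted p = 0.542) and Kcnab2 (-0.08 ± 0.03, adjusted p = 0.621), all in the ACC.

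The last question was whether channel genes differed between mice collected after 10 minutes of social interaction and mice without it, averaged over the 3 conditions. The 2 sets were different mice, and any difference in their handling beside the encounter cannot be told apart from it. In the mPFC 5 of 82 members were called (6.1%; all genes, 7.4%), all higher, in the ACC 1 of 82 (1.22%; all genes, 4.15%), in the vHipp 1 of 81 (1.23%; all genes, 1.21%) and in the summed regions 3 of 85 (3.53%; all genes, 8.56%). No member was called in the Nacc (all genes, 0%), BLA (all genes, 1.49%) or DMT (all genes, 1.6%), and DESeq2 called none there either. In these 3 regions 2, 6 and 5 members had an unadjusted p under 0.05, which is 2.4%, 7.3% and 6.1% of members, against 2.5%, 14.8% and 12.7% of all genes. Some of the Nacc libraries that matched another mouse matched one of the other set, so the Nacc result rests on set labels in doubt. Without those libraries no member was called in the Nacc either (smallest edgeR adjusted p = 0.409). There, 5 of 81 members had an unadjusted p under 0.05, and the share of all genes is not given here.

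**Figure D4:**
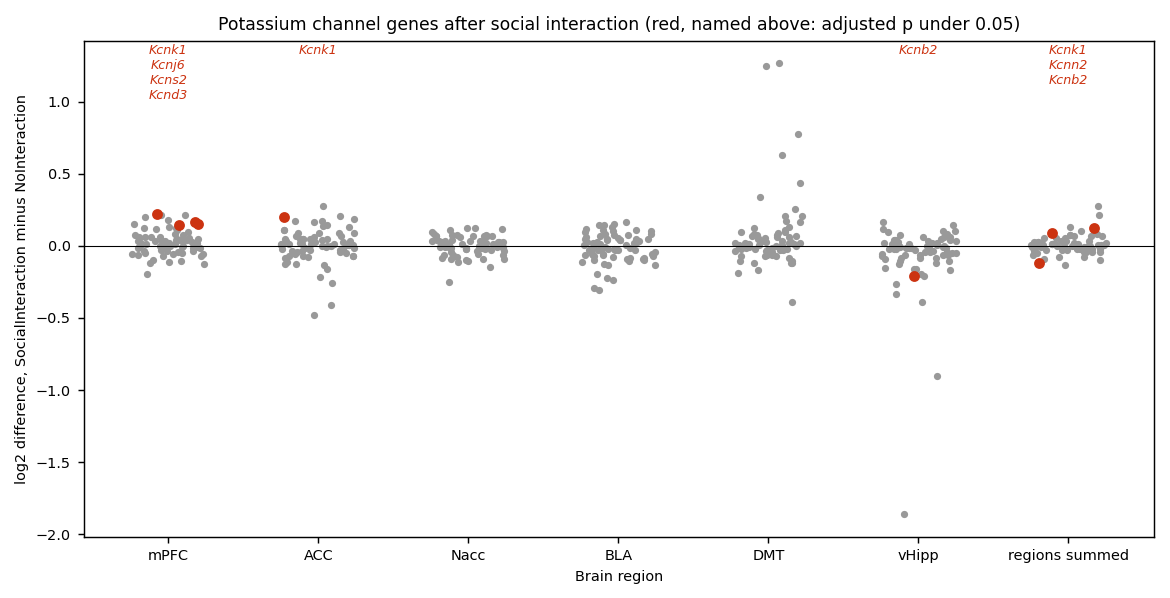
Log2 difference of the tested members with a median of at least 1 CPM in some region between SocialInteraction and NoInteraction mice (vertical axis) in each region and in the summed regions (horizontal axis), with called members in red and named. Called differences lie between -0.21 for Kcnb2 in the vHipp and 0.22 for Kcnk1 in the mPFC, so they are small beside the region differences.

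Kcnk1, a leak channel of neurons and glia, was called in both cortical regions. In the mPFC its lowest, median and highest levels were 57.2, 65.8 and 74.9 CPM (each region scaled alone) in NoInteraction and 68.3, 75.3 and 88.3 CPM in SocialInteraction mice, and 10 of 20 SocialInteraction libraries lay above every NoInteraction library (log2 difference 0.22 ± 0.03, adjusted p = 1.57e-05). The means were higher after interaction in each condition, from 66.2 ± 5.52 (SD, n = 7) to 76.7 ± 7.35 CPM (n = 6) in Ctrl_Veh, from 65.4 ± 2.52 to 74.1 ± 4.63 CPM (n = 7 each) in ELA_Veh and from 64.2 ± 3.78 to 77.6 ± 6.53 CPM (n = 7 each) in ELA_SAFit2. In the ACC the medians were 64.1 and 70.7 CPM (0.20 ± 0.03, adjusted p = 0.000308), and 7 of 20 SocialInteraction libraries lay above all NoInteraction libraries. The highest ACC library, at 98.6 CPM, was that of mouse 89. Without it the difference was 0.17 ± 0.03 (adjusted p = 7.36e-05) and 6 of 19 lay above. In the other four regions the Kcnk1 differences were 0.07 ± 0.05 in the Nacc, 0.10 ± 0.04 in the BLA (adjusted p = 0.214), 0.09 ± 0.04 in the DMT (adjusted p = 0.277) and 0.04 ± 0.04 in the vHipp (adjusted p = 0.689), none of them called. The Nacc value includes the libraries that matched another mouse.

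**Figure D5:**
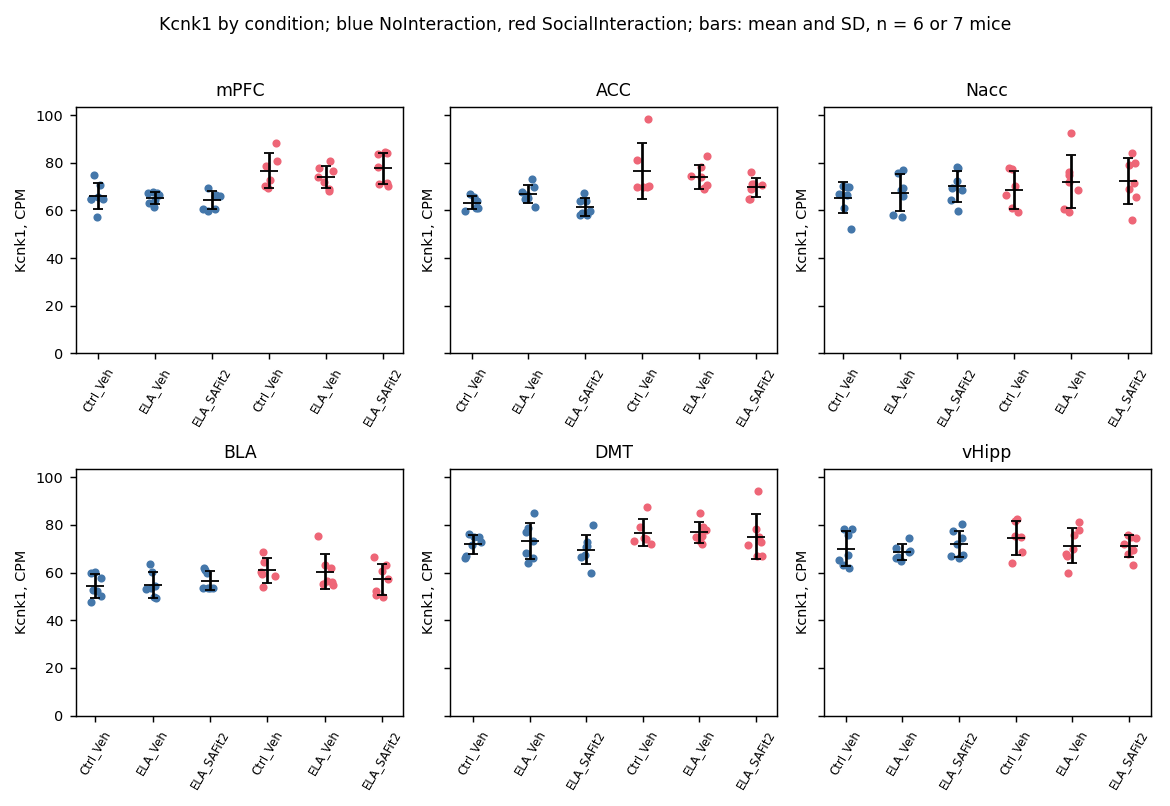
Kcnk1 level (CPM, each region scaled alone) of each mouse by condition in each region, with NoInteraction in blue, SocialInteraction in red, and bars for the mean and SD of 6 or 7 mice. The red points are shifted up in all 3 conditions of the mPFC, where the set medians were 65.8 and 75.3 CPM.

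Whether the response itself differed between regions was tested for Kcnk1 and Kcnb2 by a permutation test of the within-mouse difference between 2 regions (two-sided, 100000 resamples, 20 against 21 mice, 10 comparisons adjusted together). Both genes and their reference regions were chosen because they had been called there, and the p-values do not allow for that choice. The Kcnk1 response in the mPFC was larger than that in the vHipp by 0.18 (log2 of CPM + 1, adjusted p = 0.0006) and larger than that in the DMT by 0.13 (adjusted p = 0.0145). It exceeded the Nacc response by 0.15 (adjusted p = 0.0226), but only by 0.07 (unadjusted permutation p = 0.305) among the 14 and 15 mice left without the 12 doubtful Nacc libraries. The differences from the BLA (0.12, adjusted p = 0.078) and the ACC (0.03, adjusted p = 0.588) did not pass.

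Among the other members called higher in the mPFC, Kcnj6, a G-protein-gated Kir subunit, had 30.8, 36.5 and 44.3 CPM as its lowest, median and highest NoInteraction library and 34.6, 40.5 and 53.2 CPM after interaction (0.16 ± 0.05, adjusted p = 0.022). Kcnd3 had medians of 115.6 and 129.6 CPM (0.15 ± 0.04, adjusted p = 0.0289) and the silent subunit Kcns2 of 35.1 and 39.1 CPM (0.15 ± 0.05, adjusted p = 0.0428). The groups overlapped for these 3 genes, with 3 to 5 of 20 SocialInteraction libraries above all NoInteraction ones. Calls on the list of associated genes included Lrrc38 in the ACC (0.24 ± 0.07, adjusted p = 0.0468) and Kctd12 in the DMT (0.13 ± 0.03, adjusted p = 0.00809).

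In the ACC the count turned on the library of mouse 89. Without it 6 of 82 members were called, all higher (7.32%; all genes, 7.62%), in place of 1. Beside Kcnk1 these included Kcnj6 (0.24 ± 0.05, adjusted p = 0.00388, against 0.352 with the library), Kcna1 (0.21 ± 0.06, adjusted p = 0.0144, against 0.526) and Kcnh1 (0.14 ± 0.04, adjusted p = 0.0372, against 0.215). The library of mouse 89 was the lowest of 41 for these 3 genes, with 17.3 CPM of Kcna1, 9.97 CPM of Kcnj6 and 100.6 CPM of Kcnh1.

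Kcnb2, a Kv2 delayed rectifier, was the 1 member called lower. In the vHipp its lowest, median and highest levels were 29.7, 32.9 and 43.8 CPM in NoInteraction and 26.4, 28.7 and 34.4 CPM in SocialInteraction mice, and 13 of 20 SocialInteraction libraries lay below every NoInteraction library (-0.21 ± 0.04, adjusted p = 0.00653). By the same permutation test its vHipp response lay below that of the DMT by 0.23 (a difference of -0.23, adjusted p = 0.0013), whereas differences from the other four regions did not pass (adjusted p from 0.148 to 0.403). With the regions of a mouse summed, Kcnb2 was lower (-0.12 ± 0.04, adjusted p = 0.0286), Kcnk1 higher (0.12 ± 0.02, adjusted p = 0.000312) and Kcnn2 higher (0.09 ± 0.03, adjusted p = 0.0293). Without mouse 89, 4 members were called in the sums (all genes, 9.58%), with Kcnj6 added (0.10 ± 0.03, adjusted p = 0.0178).

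The 3 differences between the sets that were largest in size belonged to the choroid plexus subunits and were not called. Kcne2 differed by 1.25 ± 0.70 in the DMT (adjusted p = 0.479) and by -1.86 ± 0.62 in the vHipp (adjusted p = 0.15), and Kcnj13 by 1.27 ± 0.74 (adjusted p = 0.501) and -0.90 (adjusted p = 0.54). Ttr differed in the same directions, with medians of 19.5 CPM in NoInteraction and 57.7 CPM in SocialInteraction DMT libraries, and with a highest vHipp library of 238.5 CPM in NoInteraction and 54.2 CPM in SocialInteraction mice. The part of choroid plexus content in these differences was not tested.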

How the data were processed

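RNA from punches of 6 regions of 41 mice had been sequenced by the authors as stranded poly-A libraries. The deposited table holds estimated counts per gene for all libraries, with salmon in its name, whereas the submitters' processing notes list STAR, DESeq2, GRCm39 and mm39. Of all values 12.12% were not whole, and they were rounded. Symbols were those of the deposited table. Gene types came from GENCODE M21 for 52073 identifiers and from RefSeq, matched by symbol, for 978, and 3640 were left out. How reads shared by near-identical copies were split is not given in the sources used here. Tests covered protein-coding genes that reached 100 counts in sum and were seen in 6 or more libraries (17381 over all regions, 15722 to 15992 in a region, 82 members or 81 in the vHipp).

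Groups followed the labels. Regions were compared in edgeR 4.0.16 (R 4.3.3) with TMM factors, glmQLFit and glmQLFTest, and the mouse as a block, since the mouse number on the labels marks the same animal. Conditions and sets were compared per region with 6 groups in 1 fit. The SE given with an edgeR log2 difference was derived from the test, as its absolute value divided by the square root of the F statistic. p-values were adjusted by Benjamini-Hochberg over all genes tested. Alternatives were DESeq2 1.42.0, upper-quartile factors, no filter, no block, fewer libraries and other thresholds. Permutation tests used SciPy 1.17.1 on log2(CPM + 1). Levels of regions are CPM scaled over all libraries, and levels of conditions and sets are CPM scaled within a region. Members of each group are separate mice, and litters were not used. In simulated counts for the mPFC set comparison (15812 genes), 71% of 100 genes changed by 0.25 on the log2 scale were recovered.

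The members, gene lists and naming rule were chosen with earlier results of these data known. Named by region were the 5 called members with the largest and the 3 with the smallest differences, and members of known role. Counts cover all members, but a few genes are not reported here by name. Named by condition were all called members and the 3 with the smallest p per comparison. Leaving out the ACC library of mouse 89 was added after seeing the data. Library numbers run region by region, and all mPFC numbers except that of mouse 55 lie in a separate, earlier block. What the numbers stand for is not stated, so region cannot be told apart from anything that follows them.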

Additional observations from a re-analysis of the deposited data

Results flagged for a closer look

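Of 54 groups of 6 or 7 mice checked for a mouse far from the others, 5 had one, where chance gives about 1 in 20. Kcnd3 in the mPFC had a high mouse in ELA_SAFit2 NoInteraction (144.1 CPM, next 116.2) and another in ELA_SAFit2 SocialInteraction (173.1 CPM, next 138.5). Kcnj6 in the mPFC had one in ELA_SAFit2 NoInteraction (43.87 CPM, next 36.39) and in Ctrl_Veh SocialInteraction (53.18 CPM, next 40.84). Kcnb2 in the summed regions had a high mouse in ELA_SAFit2 SocialInteraction (36.17 CPM, next 31.39).

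The response to social interaction differed between regions by a permutation test of the difference itself, for genes and reference regions chosen because they had been called there. For Kcnk1 the mPFC response exceeded that of the Nacc by 0.15, of the DMT by 0.1291 and of the vHipp by 0.1791 (log2), and the first did not hold without the 12 doubtful Nacc libraries (0.0705, permutation p = 0.305). For Kcnb2 the vHipp response minus the DMT response was -0.2344.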

How the results depend on the processing

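The 112 region calls became 247 at a log2 difference of at least 0.5. With no replicate block, which drops the pairing of regions by mouse, there were 112, of which 110 were shared. DESeq2 gave 113 (112 shared), NoInteraction mice only lost 7 calls and gained 8, no filter lost 3 and gained 2, upper-quartile factors left 110, and leaving out the 12 Nacc libraries lost 2 and gained 1. Kcne2 in the vHipp was no longer called with NoInteraction mice only (-0.44 ± 0.52, adjusted p = 0.453). For ELA_SAFit2 against ELA_Veh, 0 calls by edgeR became 1 by DESeq2 (Kcnip1 in the ACC). The 7 calls within regions for SocialInteraction against NoInteraction became 12 without the ACC library of mouse 89. Of these 7, Kcnd3 (adjusted p = 0.0503) and Kcns2 (adjusted p = 0.0642) in the mPFC missed the threshold with upper-quartile factors. DESeq2 also called Kcnn2 in the ACC (adjusted p = 0.0496), and with the regions summed Kcnk9 was called lower by DESeq2 (-0.07), with upper-quartile factors (-0.08) and without the Nacc (-0.08). No result reversed its direction. Within a condition, 6 or 7 mice per group limit what small differences can be found, and members under 1 CPM rest on few counts.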
